A study of Rattus norvegicus with 8 samples.

Results

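Myocd, Cnn1, Itga8 and Egr1 are 4 genes of smooth muscle phenotype that had a region in the authors' tables of m6A change after Mettl3 overexpression. Their regions were found by exact gene name, and each gene had 1, so they make up 4 of the 1967 listed regions and 4 of the 1726 gene names. The genes were chosen by having a row in these tables, which list regions with a p-value under 0.05 and a fold of at least 4. The fold and p-value of each region are therefore given as a description, and no test of them was made. The cells were vascular smooth muscle cells in primary culture from rat; one group overexpressed Mettl3, the enzyme of the m6A writer complex, and the control group carried the vector. Each condition had 2 libraries of RNA pulled down with an antibody to m6A and 2 input libraries of unenriched RNA fragments, 8 libraries in all. The labels do not state how Mettl3 was delivered, or if libraries of 1 group stem from different isolations.

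N6-methyladenosine (m6A) is a mark on messenger RNA that reader proteins recognise and that can alter splicing, export, translation and decay. Smooth muscle cells of the artery can leave a contractile state for a proliferative one after injury. Myocardin, the product of Myocd, is the coactivator that joins serum response factor (SRF) at CArG boxes and drives the contractile genes. Cnn1 encodes calponin 1, an actin-binding protein of the contractile apparatus. Itga8 encodes the integrin alpha-8 chain, a matrix receptor abundant in contractile smooth muscle. Egr1 encodes an immediate early zinc-finger factor that growth factors and injury induce, also through SRF.

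The Egr1 start region is shown because it holds letters of the CArG box, the DNA element that SRF binds. The sequence runs from 250 bases before to 50 after the RefSeq start of Egr1 on GRCr8, chr18:26736828-26737127, plus strand, with CArG boxes in capitals. These are the CC, then 6 letters A or T, then GG consensus of SRF binding, a pattern that reads alike on both strands, so that 1 search covers both.
Egr1: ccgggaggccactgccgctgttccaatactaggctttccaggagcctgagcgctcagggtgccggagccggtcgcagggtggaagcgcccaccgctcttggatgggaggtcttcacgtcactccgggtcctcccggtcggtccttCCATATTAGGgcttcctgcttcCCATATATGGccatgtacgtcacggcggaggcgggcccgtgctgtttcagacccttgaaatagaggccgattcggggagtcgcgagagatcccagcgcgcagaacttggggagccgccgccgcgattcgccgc
The window held 2 CArG boxes, which do not overlap. Of 33469 RefSeq windows of the same length, 1.64% held at least 1 and 7 windows held 2 or more. The windows of Cnn1 and Itga8 held no such letters, and Myocd was not among the windows. Only this exact pattern within the window was searched, so variant or more distant boxes were not looked for. The deposited values concern RNA and do not measure these DNA sites.

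Only Itga8 of the 4 genes passed an adjusted p under 0.05, and its region was higher in Mettl3-overexpressing cells. The regions of Egr1, Myocd and Cnn1 were listed as lower in Mettl3-overexpressing cells, and none of these 3 passed. In the authors' deposited table a share of 14.0% of all 1967 regions passed, as did 20.2% of the 257 higher and 13.0% of the 1710 lower regions. A count of 1 in 4 is too small to be read against these shares. The tables give 1 fold per region for both libraries together, so neither a value per library nor a spread between replicates can be shown for any gene. The sources used here do not say whether the authors corrected the fold for the input libraries, so more m6A on an RNA and more of that RNA cannot be told apart.

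**Figure D1:**
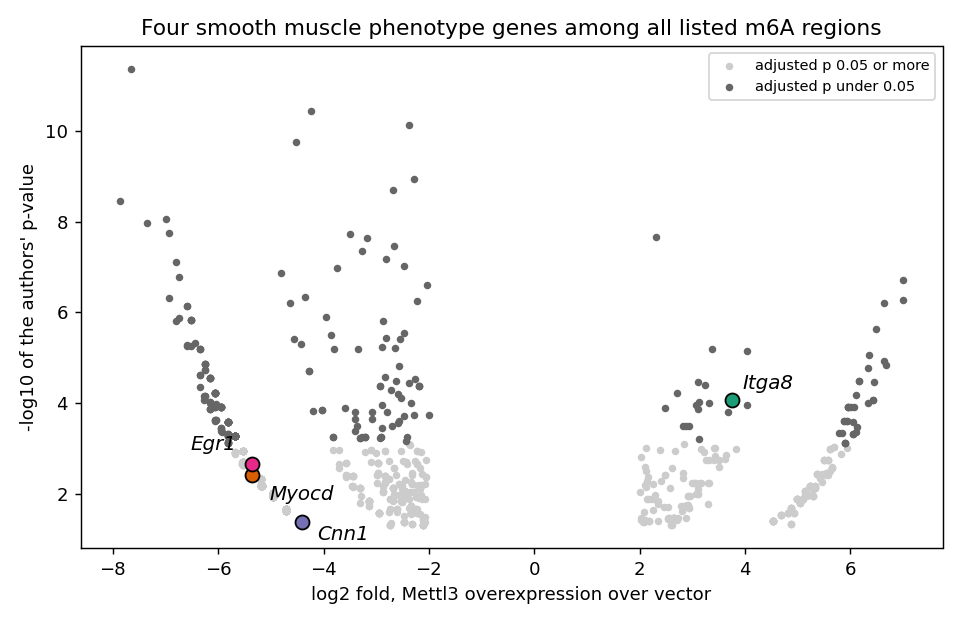
Each point is 1 of the 1967 listed regions, by its log2 fold of Mettl3 overexpression over vector (x axis) and the −log10 of the authors' p-value (y axis), with dark points passing an adjusted p under 0.05. Itga8 lies on the higher side at 3.75 among passing regions, while Egr1 and Myocd at -5.36 and Cnn1 at -4.40 lie on the lower side among regions that did not pass.

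The Itga8 region lay on chromosome 17 from 81303908 to 81304041 (134 bp) and was assigned to transcript NM_001173972, in coordinates of the authors' build, which is not named. Its fold was 13.5 in the authors' deposited table, or 3.75 on the log2 scale, with p = 8.60e-05 (adjusted p = 0.0112). By p it stood 21st of the 257 higher regions of the authors' deposited table, and by fold 148th, below the median higher fold of 25.6. The fold can be read as a mean signal of 8.12 in Mettl3-overexpressing cells and 0.51 in vector cells, a constant of 0.1 having been added to both. In reads over the 2 libraries of a condition this is 66 in Mettl3-overexpressing cells (exact Poisson 95% interval 51.0 to 84.0) and 1 in vector cells (0.0253 to 5.57). These implied reads are an inference from the fold, and the intervals cover counting error only. The ratio of reads was 66 (exact 95% interval 11.4 to 2646), and the ratio of the means without the constant was 15.9. These differ because a vector read weighed 4.09 times an overexpression read in the folds. With these weights the exact 95% interval of the overexpression-to-vector ratio starts at 2.80 for Itga8. The same fold also arises from 1001 reads against 18, the next pair whose vector reads came out whole (within 0.05), and the smaller pair was taken. For some other regions the smallest pair is too small for its p-value, so the reads and intervals of Itga8 are uncertain. Of the 257 higher regions 142 had 0 implied vector reads, and the size of such a fold rests on the added constant. The rank of Itga8 by fold therefore does not compare like with like.

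**Figure D2:**
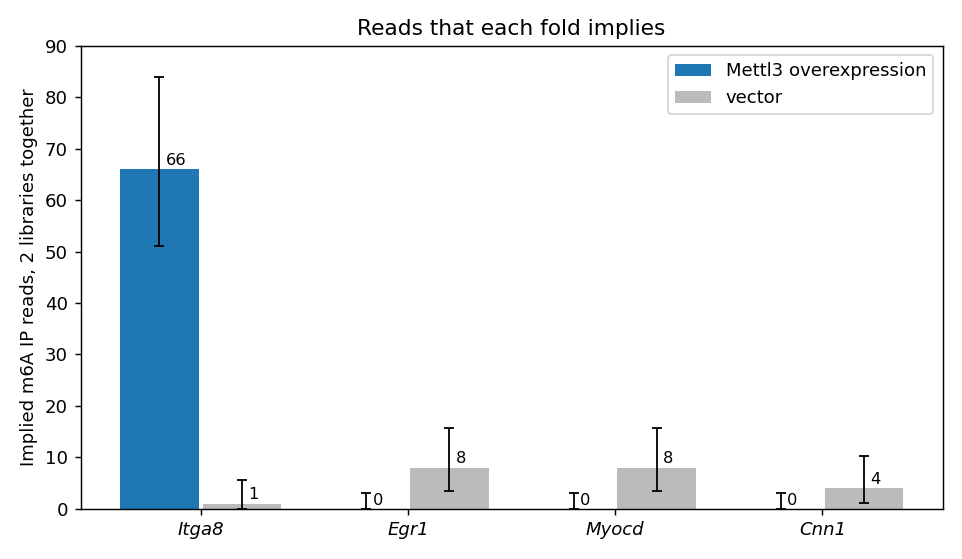
Bars give the m6A IP reads that each fold implies, summed over the 2 libraries of a condition (y axis). Blue bars are Mettl3-overexpressing cells and grey bars are vector cells. Lines are exact 2-sided Poisson 95% intervals for reads above 0. For 0 reads they reach to a set limit of 3, which is not such an interval. Itga8 has 66 reads against 1, while Egr1, Myocd and Cnn1 have 0 reads in Mettl3-overexpressing cells against 8, 8 and 4 in vector cells.

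Itga8 was among 49 higher regions with 1 implied vector read, and 4 of these 49 passed. Among them the implied reads in Mettl3-overexpressing cells ranged between 28 and 80, and Itga8, with 66, had the 4th largest fold and the 2nd smallest p. The p-value did not follow the fold closely in this group. In the authors' deposited table Riok3, with 70 implied reads against 1, had a larger fold than Itga8 (14.3) yet did not pass (adjusted p = 0.0592). Agpat5 and C1qbp each had 80 implied reads against 1 and a fold of 16.6, but their p-values were 7.08e-06 and 0.000110 in the authors' deposited table. How the reads were divided between the 2 libraries is not in the tables. Membership of this group rests on the smallest pair of reads for each fold, which is uncertain.

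**Figure D3:**
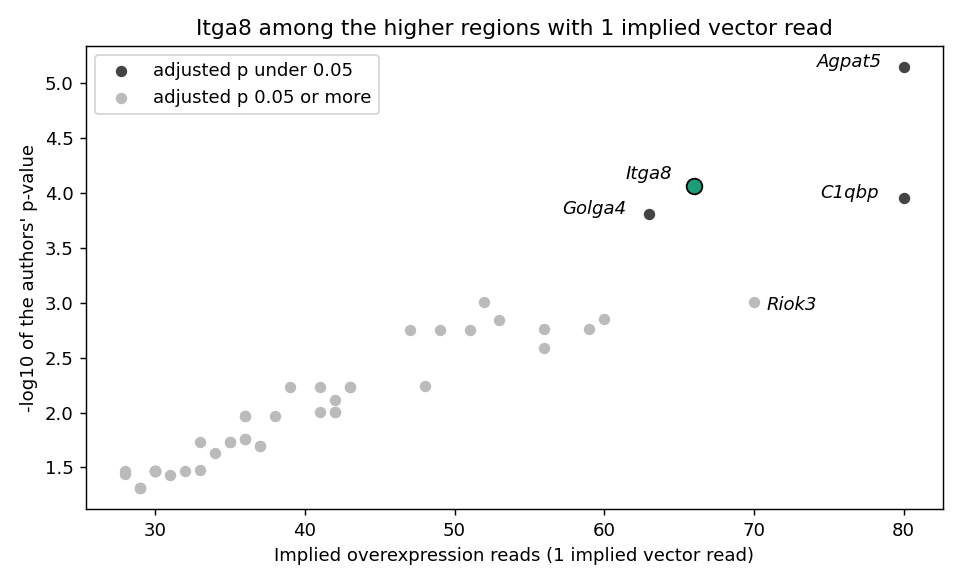
Each point is 1 of the 49 higher regions with 1 implied vector read, by its implied reads in Mettl3-overexpressing cells (x axis) and the −log10 of the authors' p-value (y axis); dark points and Itga8 (green) pass an adjusted p under 0.05. Itga8 lies at 66 reads, above Riok3 at 70 reads and C1qbp at 80 reads.

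The 2 regulators of transcription, Egr1 and Myocd, had nearly the same values. The Egr1 region on chromosome 18 from 27369518 to 27369740 (223 bp, transcript NM_012551) was listed as lower. Its fold in the authors' deposited table was 41.2 (-5.36 on the log2 scale), with p = 0.00218 (adjusted p = 0.0787). The Myocd region on chromosome 10 from 51495328 to 51495393 (66 bp, transcript NM_182667) was listed as lower. Its fold in the authors' deposited table was 41.1 (-5.36 on the log2 scale), with p = 0.00383 (adjusted p = 0.112). Both folds imply 0 reads in Mettl3-overexpressing cells against 8 reads in vector cells (exact Poisson 95% interval 3.45 to 15.8), with vector means of 4.02 for Egr1 and 4.01 for Myocd. Since the fold is taken against 0, its size rests on the added constant. As a set limit for a count of 0, 3 reads were put in place of 0 over the 2 libraries, with the 8 vector reads taken as they are. The fold of each gene was then 10.9 on the scale of the authors' weights and 2.67 in reads alone. These differ because a vector read weighed 4.09 times an overexpression read in the folds. With the counting error of the vector reads taken in as well, the exact 95% interval of the vector-to-overexpression ratio starts at 1.71 in reads alone and at 6.98 with the weights, for each gene. The Egr1 region was longer than the median of 132 bp for lower regions, and the Myocd region was shorter than 82.9% of them.

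Calponin 1 had the weakest support of the 4. The Cnn1 region on chromosome 8 from 23176422 to 23176532 (111 bp, transcript ENSRNOT00000029577) was listed as lower. Its fold in the authors' deposited table was 21.1 (-4.40 on the log2 scale), with p = 0.0403 (adjusted p = 0.248). The fold implies 0 reads in Mettl3-overexpressing cells against 4 in vector cells (exact Poisson 95% interval 1.09 to 10.2). For lower regions 4 was set as the fewest reads that could face an implied 0, and the reads of 6 lower regions were left undetermined. With 3 reads in place of 0, and the 4 vector reads taken as they are, the fold was 5.45 on the scale of the authors' weights and 1.33 in reads alone. The exact 95% interval of the vector-to-overexpression ratio starts at 0.660 in reads alone and at 2.70 with the weights. Because a vector read weighed 4.09 times an overexpression read, a ratio of 1 in reads alone does not mark an equal signal in the folds. Whether the interval of Cnn1 lies above 1 depends on the weights, whose origin is not given. By p, 1590 of the 1710 lower regions of the authors' deposited table stood ahead of Cnn1 and 27 behind it. The interval of its 4 reads overlaps that of the 8 reads of Egr1 and Myocd, so an order among the 3 genes is not set by the counts.

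The values of Egr1, Myocd and Cnn1 were shared by many other lower regions. Of the 1710 lower regions 82.7% had an implied 0 in Mettl3-overexpressing cells, with a median of 6 vector reads. The class of Cnn1, 4 reads against 0, held 398 regions (23.3% of the lower ones), which carried only 3 distinct p-values and 1 adjusted p. Cnn1 shared both its fold and its p with 92 other regions. The class of Egr1 and Myocd, 8 reads against 0, held 112 regions with 5 distinct p-values, between 0.00218 and 0.00383, so the 2 genes stand at the ends of that range. All 31 regions with the fold of Egr1 had its p, among them a region of Apob, and 9 of the 11 regions with the fold of Myocd had its p, among them regions of Diaph3 and Olr1117. None of the 1178 lower regions with 4 to 8 reads against 0 passed an adjusted p under 0.05, and none of the 82 with 9 reads did. The first to pass had 10 reads, 38 of 47, and all 108 regions with 11 or more passed. Whether these p-values take in the spread between the libraries is unknown.

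**Figure D4:**
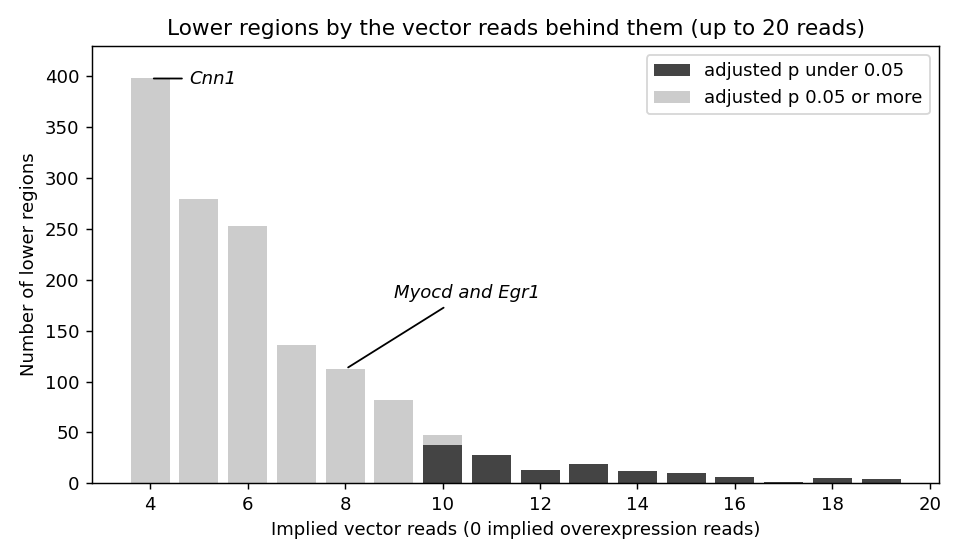
Bars count the lower regions with 0 implied reads in Mettl3-overexpressing cells (y axis) by their implied vector reads (x axis, up to 20); dark parts pass an adjusted p under 0.05. Cnn1 lies in the class of 4 reads with 398 regions and Myocd and Egr1 in that of 8 reads with 112 regions, all short of the 10 reads at which regions began to pass.

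Synm was the only other gene of the myocardin programme list with a region. Of 26 genes of the SRF and myocardin programme, among them Srf, Acta2, Tagln and Myh11, 1 had a lower region, 0 a higher one, and 25 had none, or 3.85% listed. Of 23148 RefSeq protein-coding genes 6.07% had a lower region, 0.920% a higher one and 6.81% either. With Myocd and Cnn1, which belong to the programme and were chosen for being listed, it is 3 of 28 genes (10.7%). Synm, the intermediate filament protein synemin, was listed at 41.3-fold in the authors' deposited table (adjusted p = 0.0787), from 0 reads in Mettl3-overexpressing cells against 8 in vector cells. Of 22 growth-response and immediate early genes, Fos, Jun, Myc and the other Egr genes included, 1 had a lower region (4.55%) and 21 had none. It lay in Elk3, a ternary complex factor that acts with SRF, and was listed at 36.2-fold in the authors' deposited table (adjusted p = 0.112), from 0 reads in Mettl3-overexpressing cells against 7 in vector cells. None of these regions passed. A gene without a region may have m6A that changed less, or not at all, or too few reads to be tested.

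Among 21 regulators of the phenotype switch 2 genes had a lower region (9.52%, against 6.07% of all protein-coding genes) and 19 had none. Smad3, which carries TGF-beta signals to contractile genes, was listed at 41.2-fold in the authors' deposited table (adjusted p = 0.0787), the same values as Egr1. Klf4, a repressor of the contractile programme, was listed at 21.1-fold in the authors' deposited table (adjusted p = 0.248), from 0 reads in Mettl3-overexpressing cells against 4 in vector cells, as for Cnn1. The listed regions of an activator (Myocd), a repressor (Klf4) and a growth factor response gene (Egr1) were all lower, and none of them passed. Of all listed regions 86.9% were lower.

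Itga8 was the only integrin chain with a passing region. Of the 26 other integrin chain genes 5 had a region (19.2%, against 6.81% of all protein-coding genes), 4 a lower and 1 a higher one, and 21 had none, the alpha-8 partner Itgb1 among them. These 5 genes had 7 regions, none of which passed, against 14.0% of all listed regions; all 7 had an unadjusted p under 0.05, as every listed region has. Itgb4, the epithelial beta-4 chain, was listed as higher at 4.38-fold in the authors' deposited table (adjusted p = 0.0592); the region spans 14 bp, with 128 implied reads in Mettl3-overexpressing cells against 7 in vector cells. The lower regions lay in Itga9, Itgae, Itgal and Itgb8, the last 2 genes with 2 regions each. Their folds were between 21.1 and 36.2 in the authors' deposited table, all from 0 reads in Mettl3-overexpressing cells against 4 to 7 in vector cells, and the larger Itgb8 fold came from a region of 2 bp. Itgal and Itgae encode chains known from leukocytes. The 5 matrix ligands of alpha-8 tested by name (Npnt, Fn1, Vtn, Tnc and Spp1) and the other calponins Cnn2 and Cnn3 had no region.

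**Figure D5:**
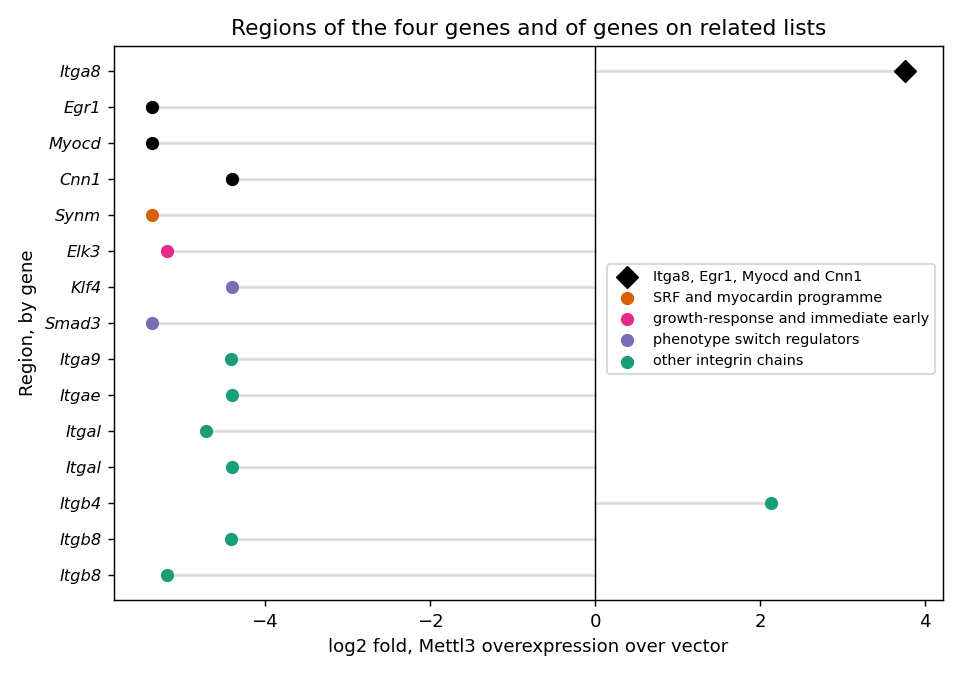
Points give the log2 fold of Mettl3 overexpression over vector (x axis) for each region of Itga8, Egr1, Myocd, Cnn1 and of genes on the related lists (y axis, 1 row per region); the diamond passes an adjusted p under 0.05 and circles do not. Itga8 at 3.75 and Itgb4 at 2.13 are higher, and the other regions lie between -5.37 and -4.40.

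The label of the cells cannot be checked against gene levels, because the tables hold none. No region lay in any of 7 markers of endothelium, 6 of leukocytes or macrophages and 5 of adventitial fibroblasts, which says nothing about their levels. These lists were short, and genes outside them that are known from such cells, Itgal and Itgae among them, did have regions.

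The 4 genes lay on 4 chromosomes, each the one that carries the gene in GRCr8. Whether the regions are exonic or intronic is not annotated in the tables. The nearest listed region of another gene lay 609401 bp from Itga8 (Pter, lower), 407837 bp from Egr1 (Sil1, higher), 212597 bp from Myocd (Arhgap44, lower) and 122696 bp from Cnn1 (Rgl3, lower). The cellular component terms of the tables place Itga8 and Cnn1 at focal adhesions and Myocd and Egr1 in the nucleus. Of the 46 focal adhesion regions 41 were lower and 5 higher, and 17.4% passed; of the 541 regions of genes with the nucleus term 487 were lower and 54 higher, and 17.0% passed. Both shares lie a little above the 14.0% of all listed regions, and the difference was not tested. Without the 4 genes described here the shares were 15.9% for focal adhesion and 17.1% for the nucleus. The 2 focal adhesion genes had opposite directions, and the 2 nuclear ones were both lower, as were 86.9% of all listed regions. By p, the regions nearest to Itga8 were higher regions of Atad2 and Plekhb1, each listed at 85.9-fold in the authors' deposited table (adjusted p = 0.0112). Both had 69 implied reads in Mettl3-overexpressing cells against 0 in vector cells. Atad2 also had lower regions, at 6.89-fold (adjusted p = 0.0168) and 21.1-fold (adjusted p = 0.248) in the authors' deposited table.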

How the data were processed

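The members and gene lists were chosen with earlier results of these data known. The submitters' processing notes name Trimmomatic 0.36, a read trimmer; aligner, genome build, caller settings and test: not given in the sources used here. The deposited tables hold the authors' comparison of Mettl3 overexpression with vector, per the file headers: a fold (a ratio above 1, with the direction in its own column), a p-value, an FDR, here called adjusted p, and a score deposited as the −log10 of that p-value. The planned tests per library could not be made, so the authors' values are described, with an adjusted p under 0.05 as passing. Starts are counted from 1. No depth per library is given.

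Means were recovered by reading each fold as a ratio of means given to 2 decimals, each with 0.1 added, taking the smallest pair with whole reads. Low means fell at multiples of 0.503 (vector) and 0.123 (overexpression), read as 1 read over 2 libraries. An implied 0 was accepted only against at least 4 vector reads in lower regions or 18 overexpression reads in higher regions. Poisson and binomial intervals were exact (95%; scipy 1.17.1). Members, every listed gene of the fixed lists, and the 2 regions nearest by p to each member were named; for Cnn1 and Egr1 these were tied with many, and for Cnn1 are given by count. The genes of the single-vector-read class (Riok3, Agpat5 and C1qbp), and Alms1 and Mxra7, were chosen after their values were seen. Symbols and promoter sequences came from RefSeq tables of GRCr8. Alternatives were other thresholds, list matching by gene ID, 3 reads for 0, reads without weights and other constants.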

Additional observations from a re-analysis of the deposited data

How the results depend on the processing

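At an adjusted p under 0.01, and by Bonferroni over at least 18150 tested regions, 0 of the 4 member regions passed, against 1 at an adjusted p under 0.05; all 4 had an unadjusted p under 0.05, which was the condition for being listed. Counted as genes, the numbers were again 0 and 4. Of the lists, those with listed genes (1 for the SRF and myocardin programme, 1 for growth response, 2 for the phenotype switch and 5 for other integrin chains) had 0 at an adjusted p under 0.05, and matching by gene ID gave the same counts. With 3 reads in place of 0 the folds were 10.9 for Myocd and Egr1 and 5.45 for Cnn1, against 41.1, 41.2 and 21.1 as deposited. In reads alone they were 2.67, 2.67 and 1.33, and 66 for Itga8 against 13.5 as deposited, because the folds weigh a vector read 4.09 times. A constant of 0.05 or 0.2 left the reads of Myocd, Egr1 and Cnn1 as they were, and 0.2 left those of Itga8, while 0.05 would read its fold as 400 against 7. Each gene's fold kept its direction in these settings. For Cnn1 the exact 95% interval of the ratio starts at 0.660 in reads alone and at 2.70 with the weights. Whether this interval lies above 1 thus depends on the weights. No paired analysis was possible because only folds between the conditions are at hand, without values for single libraries; leaving out a library could not be run for the same reason.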

Other observations

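A biological process annotation that mentions smooth muscle was carried by 17 listed regions in 16 genes, Itga8 among them; this set was chosen after the data were seen, and the annotations of 180 regions, those of Myocd and Egr1 included, were not used here. Of the 17, 13 were lower (76.5%, against 86.9% of all listed regions) and 4 higher, and 3 passed an adjusted p under 0.05 (17.6%, against 14.0% of all). Besides Itga8 these were Olfm2, which takes part in smooth muscle differentiation under TGF-beta, and Dock4, an exchange factor for Rac. In the authors' deposited table Olfm2 was lower at a fold of 10.1 (adjusted p = 0.00159). The smallest pair of reads for this fold is 11 in Mettl3-overexpressing cells against 29 in vector cells, which is uncertain. Dock4 was lower at 56.4-fold in the authors' deposited table (adjusted p = 0.0240), from 0 implied reads in Mettl3-overexpressing cells against 11 in vector cells. Notch3, a receptor of arterial smooth muscle, had a lower region, at 21.2-fold in the authors' deposited table, that did not pass, from 0 reads in Mettl3-overexpressing cells against 4 in vector cells.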
